A study of Sus scrofa with 16 samples.

Results

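The training response was examined in the left ventricle of castrated male pigs (barrows) alone. The members are the 8 arrays of the male animals among 16 arrays in all, 4 from exercised barrows (titled Ex 3, Ex 5, Ex 7 and Ex 8) and 4 from sedentary barrows (Sed 3, Sed 5, Sed 6 and Sed 7), chosen by the sex and the training group that the labels give. All animals of the study were crosses of the Yorkshire and Landrace breeds, 2 to 3 months old, and tissue was taken 4 to 5 weeks after the protocol began. Only neutered males were used, so every male of both training groups lacked testes, and no intact male was there for comparison. The other 8 animals were females (gilts), 4 exercised and 4 sedentary, and they enter here only where a difference from barrows is tested or values are set side by side. Each array carried total RNA of 1 animal, so the spread between arrays includes the spread between animals. The kind and the dose of exercise are not given in the labels.

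Endurance training enlarges the left ventricle without the fibrosis and loss of function that follow pressure overload, a state called physiological hypertrophy. Growth of cardiomyocytes, the capillary supply, the supply of fuel to mitochondria and the handling of calcium are the processes usually studied in it. Testosterone acts on the heart muscle, and castration removes its main source. In RNA from whole tissue, fewer cells of a type and less RNA per cell cannot be told apart.

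Expression was measured on an Affymetrix porcine array, on which several short probes to a transcript are read together as a probe set. The deposited values are on the log2 scale, so a difference of 1 is a 2-fold difference. Of 12 ventricular markers 10 were measured, with MYL2 at 14.6, TNNI3 at 14.5 and MYH7 at 14.5 log2 on average over all 16 arrays. EIF1AY, which is on the Y chromosome, ranged from 9.16 to 9.83 log2 in the barrows and from 3.12 to 3.45 in the gilts, so all 16 arrays matched their labelled sex by this gene, while the SRY probe set overlapped (3.82 to 4.30 in barrows, 3.82 to 4.45 in gilts). Spiked-in poly-A control transcripts parted the 16 arrays into 2 sets that the labels do not name. Ex 3, Ex 5, Sed 3 and Sed 5 lay in set A (7.23 to 8.20 log2), and Ex 7, Ex 8, Sed 6 and Sed 7 in set B (5.81 to 6.06). The split also appeared in the gap between the 3' and 5' actin probe sets, at 2.39 to 2.99 log2 in set A and 1.27 to 1.55 in set B. The same gap for GAPDH overlapped between the sets, at -0.28 to -0.11 in set A and -0.21 to -0.10 in set B. The first principal component of the barrow arrays (34.8% of the variance) separated the sets. Both sets hold 2 exercised and 2 sedentary barrows. Changes below are therefore plain differences of group means, tested with limma with the set as a block.

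Exercised barrows differed from sedentary barrows in 685 of 23935 probe sets (2.86%) at an adjusted p under 0.05, 307 higher (1.28%) and 378 lower (1.58%). Counting each gene by its brightest probe set, 56 of 6765 genes rose (0.828%) and 74 fell (1.09%). With all their probe sets taken in, 233 genes held a call, and the lists below count the brightest alone. Changes were small, with a median size of 0.55 log2 over the probe sets called, and 14 reached 1 log2. The second principal component (20.8% of the variance) separated the exercised from the sedentary barrows without overlap (two-sided exact permutation p = 0.0286, the smallest that 4 against 4 can give; 0.543 after Benjamini-Hochberg adjustment over 19 array measures).

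This count rested heavily on how the arrays were modelled. Without the set block 161 probe sets passed (0.673%), all among the 685. With the replicate number of the titles as the block, which leaves 3 pairs of animals, 0 passed in limma, with 3850 at an unadjusted p under 0.05. Leaving out 1 animal moved the count by over 1.5 times whichever animal it was: 78 were called without Ex 3, 411 without Ex 5, 60 without Ex 7 and 117 without Ex 8. Without Sed 3, Sed 5, Sed 6 and Sed 7 in turn the counts were 45, 74, 92 and 110. Within set A alone or set B alone, with 2 animals against 2, 0 passed, with 2988 and 2937 at an unadjusted p under 0.05.

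**Figure D1:**
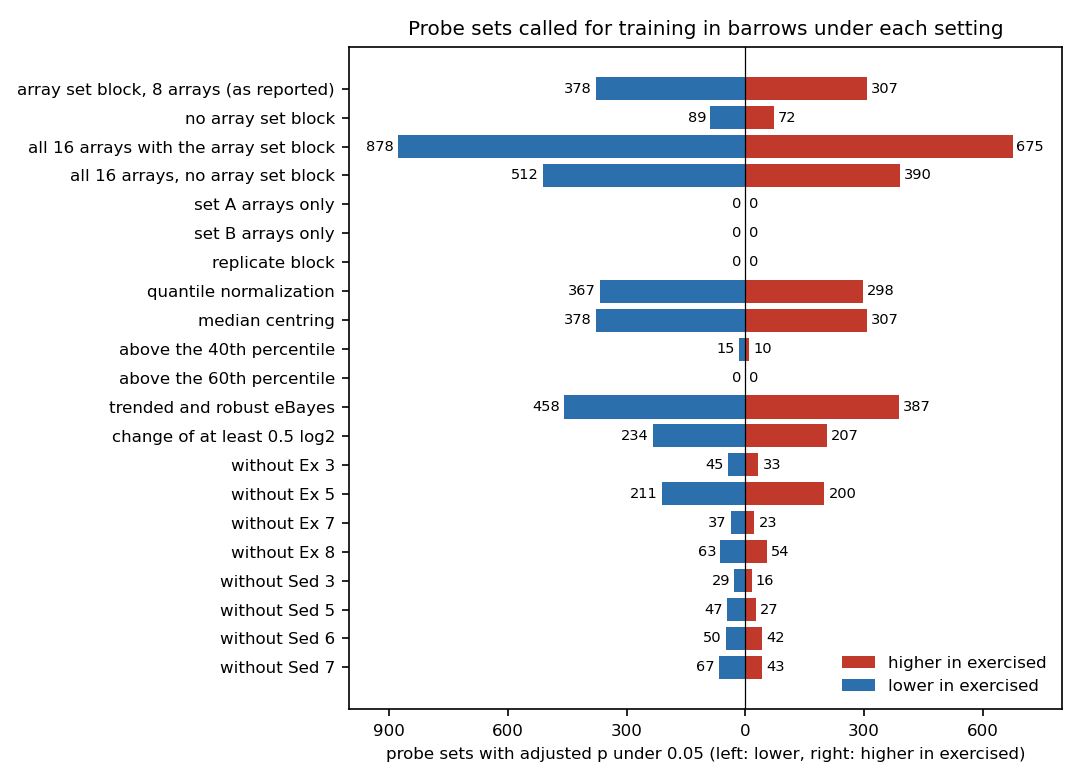
Number of probe sets with a limma adjusted p under 0.05 for training in barrows under each setting, higher in exercised animals to the right and lower to the left of 0. The bars shrink from 307 and 378 as reported to 72 and 89 without the array set block, and to 0 and 0 with the replicate block or in either set alone.

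Most calls came from dim probe sets. Of the 685, 452 (66.0%) had a mean level at or below the 40th percentile of all tested probe sets, 5.57 log2, and 54 lay above the 60th percentile, 6.88 log2. In the brightest of 10 equal bins of level 0.0835% of probe sets were called, against 7.23% and 7.15% in the bins where the share peaked. When the fit and the adjustment took in just the brighter 14361 probe sets, those above the 40th percentile, 25 passed (0.174%), 10 higher and 15 lower. Above the 60th percentile 0 passed, with 972 at an unadjusted p under 0.05.

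**Figure D2:**
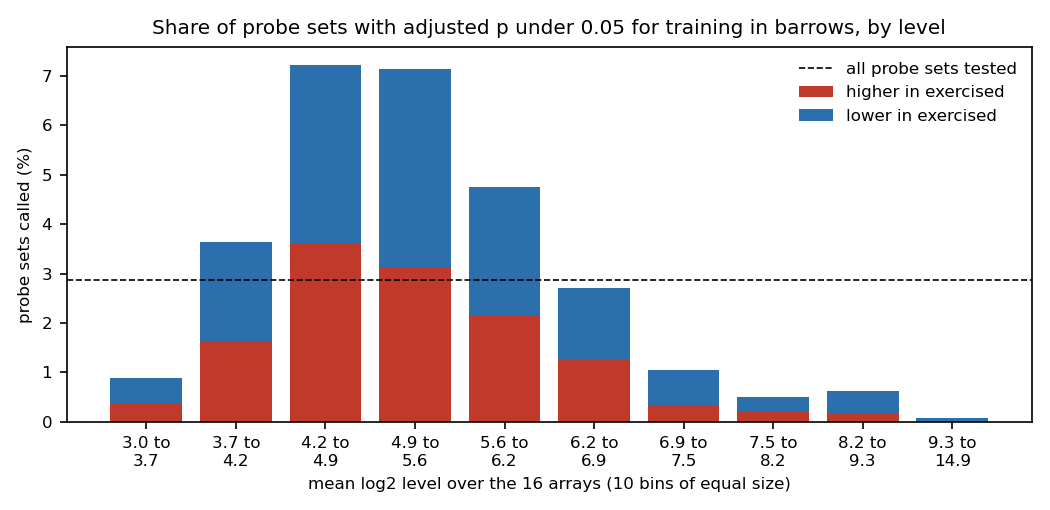
Percent of probe sets called for training in barrows (adjusted p under 0.05) in 10 bins of equal size by mean log2 level, split by direction, with the share over all probe sets (2.86%) as a dashed line. The share peaks at 7.23% and 7.15% in a pair of dim bins and is 0.0835% in the brightest.

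Control probe sets for sequences that are not of the pig moved with training too. Of 81 reporter and tag control probe sets, 79 of them at or below the 40th percentile, 19 (23.5%) had an unadjusted p under 0.05, 8 higher and 11 lower in exercised barrows. Among all tested probe sets the share was 20.0%, among those at or below the 40th percentile 26.6%, and among those above the 60th percentile 11.0%. Changes of these controls ran from -0.40 to 0.49 log2, and 2 of them (2.47%) would pass at an adjusted p under 0.05, beside 4.72% of tested probe sets at or below the 40th percentile. That class is not matched for level, since the median control level was 3.73 log2. In the level bin from 2.99 to 3.71 log2 0.877% of tested probe sets were called, and in that from 3.71 to 4.24 log2 3.64%. The part of such changes in the calls for dim genes was not tested.

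A group of 7 genes passed in the fit as reported, without the block and in each of the 8 fits that left out an animal. They were picked after their values were seen, and 33 probe sets in all met the same conditions, 10 higher and 23 lower. MSTO1, whose protein takes part in the shape and distribution of mitochondria, measured 6.81, 6.70, 6.80 and 6.95 log2 in Ex 3, Ex 5, Ex 7 and Ex 8, and 7.37, 7.48, 7.70 and 7.65 in Sed 3, Sed 5, Sed 6 and Sed 7. All 4 exercised animals lay below all 4 sedentary ones, and MSTO1 fell by 0.73 ± 0.09 (SE) log2 (1.66-fold, adjusted p = 0.0111). DMBT1, a scavenger receptor of mucosal surfaces, measured 5.47, 5.44, 5.46 and 5.64 in the exercised and 6.16, 6.28, 6.27 and 6.14 in the sedentary barrows. The groups did not overlap, and the fall was 0.71 ± 0.09 log2 (adjusted p = 0.0118).

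The other genes of this group had means at or below the 40th percentile. FXYD2, the gamma subunit that modulates the sodium pump, best known from the kidney, measured 5.83, 5.48, 5.95 and 5.67 log2 in the exercised and 4.34, 4.76, 4.73 and 4.89 in the sedentary barrows. It rose by 1.05 ± 0.13 log2, or 2.08-fold (adjusted p = 0.0118). ORC1, a subunit of the complex that marks replication origins, measured 4.98, 5.14, 5.17 and 5.24 against 4.34, 4.23, 4.17 and 4.16, a rise of 0.91 ± 0.09 log2 (adjusted p = 0.00862). ACAT2, a cytosolic thiolase of sterol synthesis, measured 5.60, 5.56, 5.59 and 5.52 against 4.67, 4.78, 4.81 and 4.98, a rise of 0.76 ± 0.09 log2 (adjusted p = 0.0111), although its second probe set changed by 0.06 (adjusted p = 0.842). PRF1, the pore-forming protein of cytotoxic lymphocytes, measured 4.90, 4.78, 4.89 and 4.78 against 5.50, 5.58, 5.78 and 5.51, a fall of 0.76 ± 0.09 log2 (adjusted p = 0.0118), while its second probe set changed by -0.08 (adjusted p = 0.667). RAB19, a small GTPase, fell by 0.87 ± 0.10 log2 from 5.37 ± 0.12 (SD, n = 4) to 4.49 ± 0.17 (adjusted p = 0.0118), while its dimmer probe set was 0.28 log2 higher in exercised barrows at an unadjusted p of 0.028. In each of these genes the 4 exercised and the 4 sedentary values did not overlap.

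Among genes that passed and lay above the 40th percentile, the 14 largest rises and 14 largest falls were named. In 22 of these 28 the groups did not overlap, beside 622 of the 685 probe sets called and 7.72% of all genes. The 28 were chosen by passing in these same arrays, so the lack of overlap follows largely from that choice and is no added support. The same holds for other genes named here because they passed or had the smallest p of a list. Of the 28, 8 passed without the block, 2 passed in all 8 fits that left out an animal (MSTO1 and DMBT1) and 9 in none of them. In the fit restricted to probe sets above the 40th percentile 4 genes passed, all of them falls: MSTO1 (adjusted p = 0.0323), DMBT1 (0.0323), RBM12B (0.0404) and IP6K1 (0.0467).

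**Figure D3:**
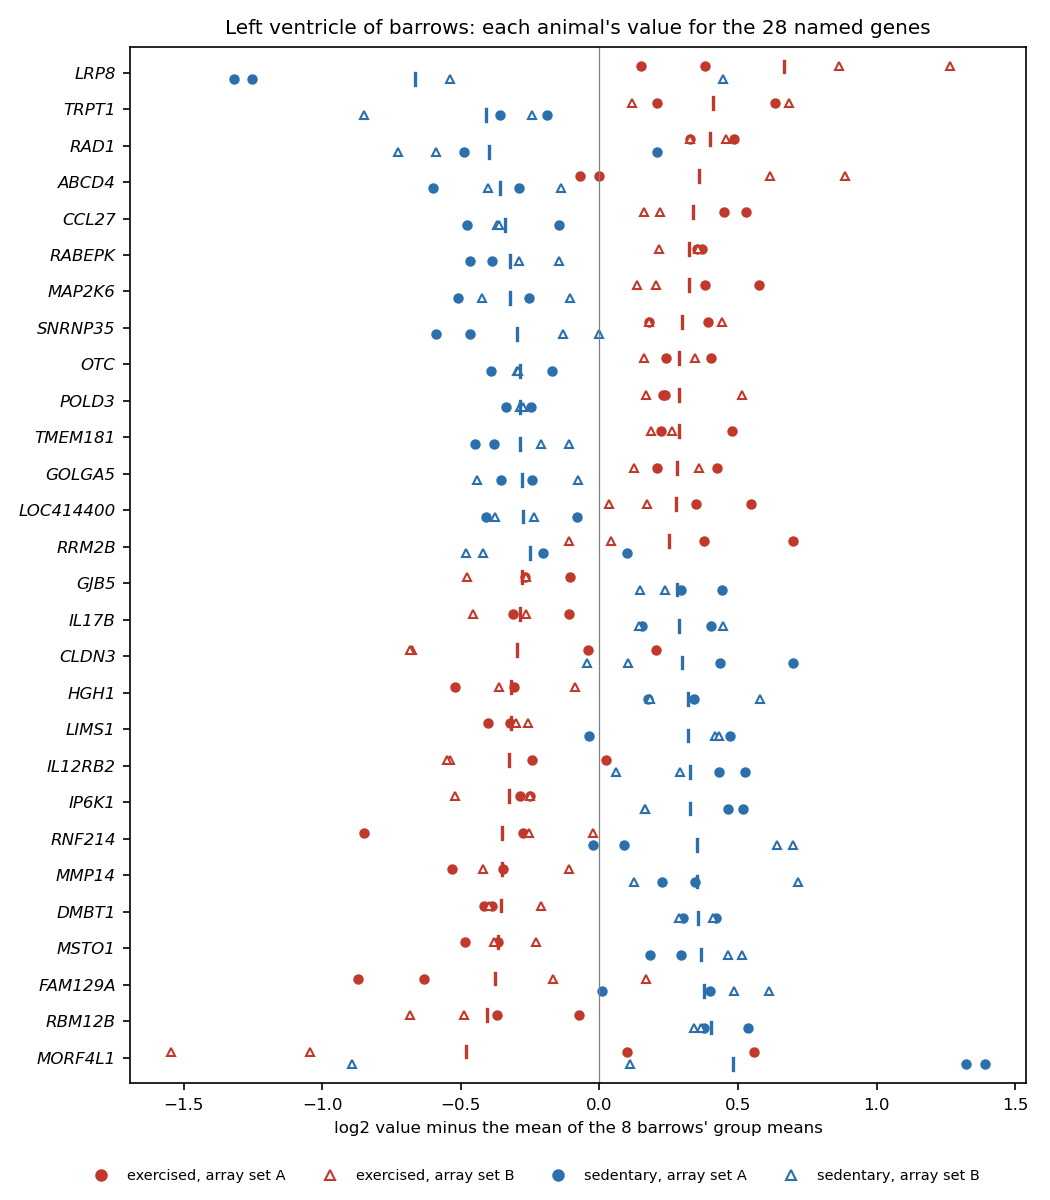
Each barrow's log2 value for the 28 named genes above the 40th percentile, drawn relative to the midpoint of the group means, with exercised animals in red, sedentary in blue, circles for array set A, triangles for set B and vertical ticks for group means. In 22 of the 28 genes the red and blue points do not overlap, and LRP8 and MORF4L1 have the largest changes and the widest spread.

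The largest rise among genes that passed was that of LRP8, a lipoprotein receptor that binds apolipoprotein E and reelin. It measured 7.48, 7.25, 8.36 and 7.96 log2 in Ex 3, Ex 5, Ex 7 and Ex 8, against 5.78, 5.84, 7.54 and 6.56 in Sed 3, Sed 5, Sed 6 and Sed 7. Sed 6 reached into the exercised range, and within each array set the groups were apart. The change was 1.33 ± 0.21 log2 (2.52-fold, adjusted p = 0.0216). It passed in 3 of the 8 fits that left out an animal and did not pass without the block.

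Several of the other rises are given by animal. TRPT1, which removes a phosphate left after splicing of transfer RNA, measured 7.54, 7.11, 7.59 and 7.02 against 6.72, 6.55, 6.66 and 6.06, a rise of 0.82 ± 0.18 log2 (adjusted p = 0.0465). SNRNP35, a protein of the minor spliceosome, measured 7.34, 7.13, 7.13 and 7.39 against 6.48, 6.36, 6.82 and 6.95, a rise of 0.60 ± 0.12 (adjusted p = 0.0387). RAD1, part of the clamp that senses DNA damage, measured 6.82, 6.66, 6.79 and 6.66 against 5.85, 6.54, 5.75 and 5.61, a rise of 0.80 ± 0.16 (adjusted p = 0.0402). In all of these genes every exercised value was above every sedentary value, although Sed 5 came close to the exercised group for RAD1. POLD3, a subunit of a replicative DNA polymerase, rose by 0.57 ± 0.10 log2 (adjusted p = 0.0262), and RRM2B, which supplies nucleotides for DNA repair and for mitochondrial DNA, by 0.50 ± 0.11 (adjusted p = 0.0481), with overlapping groups. The brightest probe set of POLD3 stood for the gene, and its other probe set changed by -0.09 (adjusted p = 0.830).

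ABCD4, which helps to carry cobalamin out of lysosomes, measured 6.46, 6.39, 7.08 and 7.35 against 5.86, 6.17, 6.32 and 6.06, a rise of 0.72 ± 0.15 log2 (adjusted p = 0.0411) that was 0.41 in set A and 1.02 in set B. Its other 2 probe sets changed by -0.16 and -0.10 and did not pass. CCL27, a chemokine best known from skin, measured 6.50, 6.42, 6.19 and 6.13 against 5.83, 5.49, 5.60 and 5.61, a rise of 0.68 ± 0.10 (adjusted p = 0.0201) that also passed without the block. MAP2K6, a kinase that activates p38, rose by 0.65 ± 0.13 (adjusted p = 0.0351). RABEPK, a partner of the small GTPase RAB9, rose by 0.65 ± 0.09 (adjusted p = 0.0179), from 5.03 to 5.35 in sedentary to 5.71 to 5.87 in exercised barrows, while its other probe sets changed by 0.05 and 0.37 and did not pass. The golgin GOLGA5 rose by 0.56 ± 0.11 (adjusted p = 0.0369), TMEM181 by 0.57 ± 0.11 (0.0316) and LOC414400 by 0.55 ± 0.11 (0.0394). A second GOLGA5 probe set changed by -0.12 and a second LOC414400 probe set by 0.22, and neither passed. OTC, a urea cycle enzyme of the liver, rose by 0.58 ± 0.09 (adjusted p = 0.0233) at a level of 5.27 to 6.06, just above the 40th percentile.

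The largest fall among genes that passed above the 40th percentile was in MORF4L1, a subunit of chromatin-modifying complexes. It measured 10.10, 9.64, 8.50 and 8.00 log2 in Ex 3, Ex 5, Ex 7 and Ex 8 and 10.94, 10.87, 9.65 and 8.65 in Sed 3, Sed 5, Sed 6 and Sed 7. The values overlapped between training groups, all set B animals lay below their set A counterparts, and within each set the exercised animals were lower. The fall was 0.97 ± 0.21 log2 (1.95-fold, adjusted p = 0.0481). It did not pass without the block, and it passed in 1 of the 8 fits that left out an animal.

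RBM12B, an RNA-binding protein, measured 7.38, 7.68, 7.26 and 7.07 against 8.29, 8.13, 8.09 and 8.12, a fall of 0.81 ± 0.11 log2 (1.75-fold, adjusted p = 0.0141) that passed without the block and in 5 of the 8 fits that left out an animal. Every exercised animal was lower than every sedentary one, and its second probe set changed by -0.20 (adjusted p = 0.436). IP6K1, a kinase that makes inositol pyrophosphates, measured 5.30, 5.26, 5.30 and 5.03 against 6.07, 6.01, 5.71 and 5.71, a fall of 0.65 ± 0.09 (adjusted p = 0.0169), again without overlap. FAM129A, a stress-responsive protein also called Niban, fell by 0.75 ± 0.14 (adjusted p = 0.0297) with overlapping groups (7.95 to 8.98 against 8.83 to 9.43), and its second probe set fell by 0.82 ± 0.13 (adjusted p = 0.0240). HGH1, a folding factor of the elongation machinery, fell by 0.64 ± 0.12 (adjusted p = 0.0308), while its second probe set changed by -0.05 (adjusted p = 0.822).

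MMP14, a membrane-bound protease that cleaves collagen and activates MMP2, measured 6.36, 6.18, 6.29 and 6.60 log2 against 7.06, 6.94, 7.43 and 6.83, a fall of 0.71 ± 0.14 (adjusted p = 0.0348) without overlap. LIMS1, an adaptor at integrin adhesions, fell by 0.64 ± 0.11 (adjusted p = 0.0284), with 5.21 to 5.35 in the exercised barrows and 6.03 to 6.08 in all sedentary barrows but Sed 3, which was at 5.58. CLDN3 and GJB5, junction proteins of epithelia, fell by 0.60 ± 0.10 (adjusted p = 0.0272) and 0.56 ± 0.09 (adjusted p = 0.0233), and in both a second probe set fell as well, by 0.77 and 0.55 log2. The groups overlapped for CLDN3 and not for GJB5. The cytokine receptor chain IL12RB2 fell by 0.65 ± 0.10 (adjusted p = 0.0200), and the cytokine gene IL17B by 0.57 ± 0.11 (adjusted p = 0.0348), although a dimmer IL17B probe set was 0.61 log2 higher in exercised barrows (unadjusted p = 0.0188). RNF214, a RING finger protein, fell by 0.70 ± 0.13 (adjusted p = 0.0315) with groups that touched at 6.14, and another RNF214 probe set, at -0.18, did not pass.

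Of 4316 genes with a brightest probe set above the 60th percentile 15 passed, and they were singled out after their values were seen. TRPT1, SNRNP35, MOCS2 and CIAPIN1 rose. MOCS2, an enzyme of molybdenum cofactor synthesis, rose by 0.46 ± 0.10 log2 (adjusted p = 0.0498), and CIAPIN1, which matures iron-sulfur proteins, by 0.41 ± 0.08 (adjusted p = 0.0335), from 8.38 to 8.53 in the sedentary to 8.73 to 8.93 in the exercised barrows. EED, PRPSAP1, CNOT2, DUSP11, SCARB2 and DLGAP4 fell, beside HGH1, MSTO1, FAM129A, RBM12B and MORF4L1. SCARB2, a receptor of lysosomal membranes, measured 8.42, 8.78, 8.47 and 8.74 against 9.31, 9.13, 9.09 and 8.96 and fell by 0.52 ± 0.12 (adjusted p = 0.0481). CNOT2, a subunit of the complex that shortens messenger RNA tails, fell by 0.44 ± 0.08 (adjusted p = 0.0312) and EED, a subunit of Polycomb repressive complex 2, by 0.37 ± 0.08 (adjusted p = 0.0486). The second probe sets of MOCS2, SCARB2 and EED changed by 0.25, -0.24 and -0.09 and did not pass. None of the 15 passed when the fit was restricted to this class.

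Among genes that passed at or below the 40th percentile the largest rises were FXYD2, SEMA4D, ORC1 and FAS, and the largest falls RAB19, CMTR2, NRSN1 and CENPI. The semaphorin SEMA4D measured 5.67, 5.66, 5.24 and 5.85 log2 against 4.67, 4.66, 4.69 and 4.64, a rise of 0.94 ± 0.13 (adjusted p = 0.0141). The death receptor FAS measured 5.04, 5.64, 5.05 and 4.91 against 4.33, 4.65, 3.88 and 4.21, a rise of 0.89 ± 0.15 (adjusted p = 0.0240). CMTR2, which methylates the cap of messenger RNA, fell by 0.85 ± 0.14 (adjusted p = 0.0233), NRSN1, a neuronal membrane protein, by 0.83 ± 0.12 (0.0200), and CENPI, a centromere protein, by 0.79 ± 0.15 (0.0311). The groups did not overlap in any of these genes, which their choice by passing in these same arrays largely builds in. A dimmer CMTR2 probe set, at 0.13, did not pass. They lie in the range of level that holds 79 of the 81 control probe sets, but the controls are not matched to them for level. The median control level was 3.73 log2, while FXYD2, ORC1, RAB19, CMTR2 and CENPI averaged 5.28, 4.80, 4.99, 5.36 and 5.34.

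The natriuretic peptide genes, which mark pathological growth of the heart, did not pass, and neither did MYH7, ATP2A2 and PLN. NPPB, which encodes B-type natriuretic peptide, measured 6.30, 6.48, 7.35 and 7.09 log2 in the exercised and 7.98, 6.55, 7.75 and 8.03 in the sedentary barrows. All exercised animals but Ex 7 and Ex 8 lay below every sedentary one, and the change was -0.77 ± 0.26 (adjusted p = 0.135). NPPA, the atrial peptide, changed by -0.58 ± 0.36 (adjusted p = 0.411), with 0.19 in set A and -1.36 in set B. The beta myosin heavy chain MYH7 changed by 0.03 ± 0.08, the calcium pump gene ATP2A2 by 0.08 ± 0.11 and its inhibitor PLN by -0.03 ± 0.08 log2, with overlapping groups in all of them. NPPB was at -0.46 without Sed 3. Over the list of 22 hypertrophy and stretch genes the median change was -0.17 log2, beside 0.01 over all genes. It was -0.05 without Sed 7, -0.10 without Ex 7 and -0.09 without Sed 3. Of the list 0 passed in limma, with 7 at an unadjusted p under 0.05, beside 1139 of all 6765 genes. Its members with the smallest p were ABRA, an activator of serum response factor signalling (-1.03 ± 0.25, adjusted p = 0.0584), XIRP1, an actin-binding protein of the intercalated disc (-0.62 ± 0.18, adjusted p = 0.0961), and NPPB and GATA6 (-0.54 ± 0.20, adjusted p = 0.174). ABRA measured 9.55, 10.46, 10.49 and 10.22 in the exercised and 11.19, 11.48, 10.67 and 11.51 in the sedentary barrows, without overlap.

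The contractile and metabolic lists moved little. Median changes were 0.04 log2 over 16 sarcomere genes, 0.02 over 15 calcium handling genes, 0.02 over 53 oxidative phosphorylation genes, 0.05 over 26 fatty acid oxidation genes, 0.09 over 17 tricarboxylic acid cycle genes and 0.03 over 21 glycolysis and glycogen genes. By their brightest probe sets 0 genes of these lists passed in limma. In the same order, 0, 0, 2, 0, 0 and 2 genes had an unadjusted p under 0.05. This count leaves out dimmer probe sets. The brightest probe set of ATP5L, an oxidative phosphorylation gene, changed by 0.16 log2 (adjusted p = 0.299). A dimmer ATP5L probe set rose by 0.60 ± 0.12 (adjusted p = 0.0397), and another, at 0.23, did not pass. The coactivator PPARGC1A, a regulator of mitochondrial content, changed by 0.02 ± 0.24 log2 and OXCT1, which starts the oxidation of ketone bodies, by 0.17 ± 0.19 at its brightest probe set. The second OXCT1 probe set measured 0.90 ± 0.20 log2 higher in exercised barrows (adjusted p = 0.0522). TOMM22, a receptor of the mitochondrial import pore, measured 10.18, 10.18, 10.31 and 10.16 against 9.95, 9.22, 9.42 and 9.67, a change of 0.64 ± 0.15 (adjusted p = 0.0546) without overlap. IVD, of leucine breakdown, changed by -0.41 ± 0.10 (adjusted p = 0.0651).

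Counted by brightest probe set, 7 of 612 distinct genes in the 27 pathway lists rose and 4 fell (1.80%, beside 1.92% of all genes). On this count 20 of the lists held no call. Of all 6765 genes 1139 had an unadjusted p under 0.05. The counts of each list are to be read beside these shares over all genes. List medians ran from -0.37 to 0.25 log2.

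**Figure D4:**
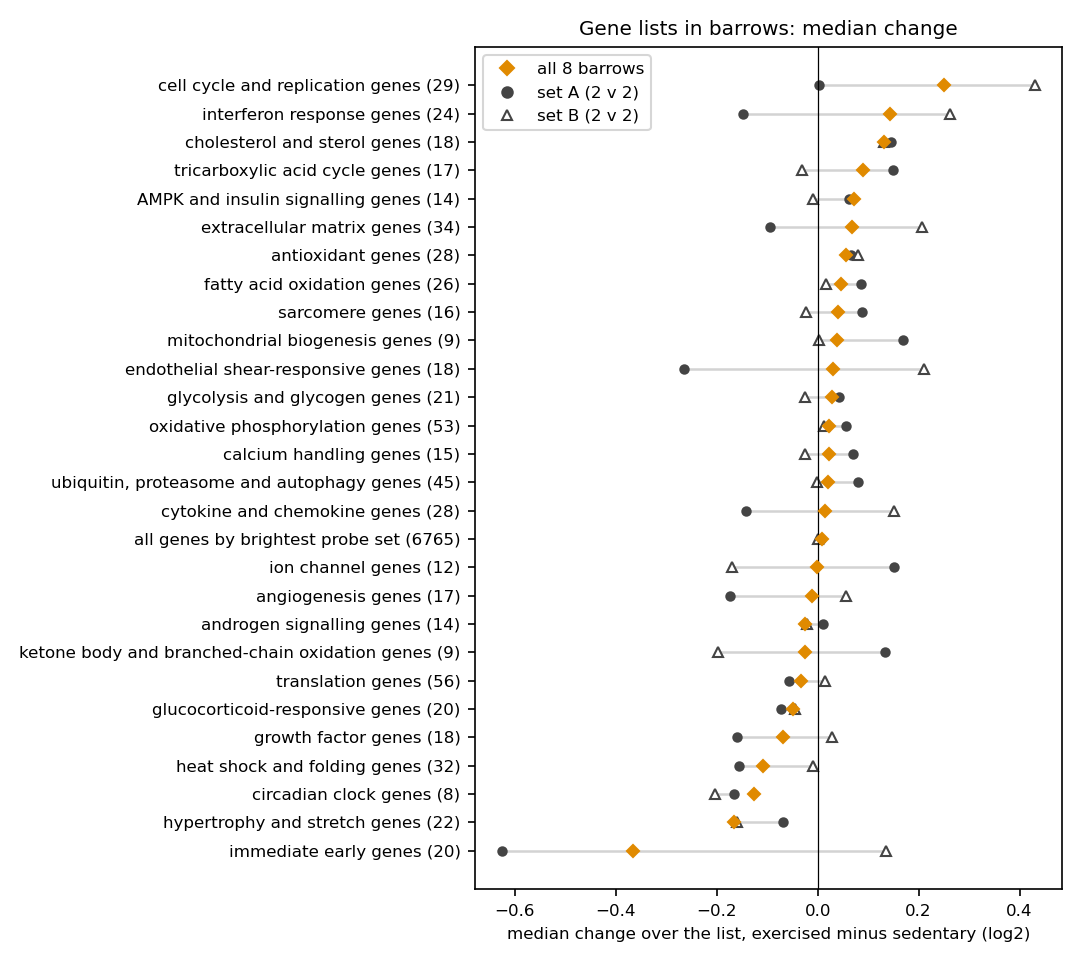
Median training change in barrows over each pathway list (diamonds, number of genes measured in brackets) and in array set A (circles) and set B (triangles) alone, in log2 units. Immediate early genes (median -0.37) and cell cycle genes (0.25) lie at the ends, and in both the 2 sets differ.

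Immediate early genes, transcription factors and their regulators that respond within minutes to stimuli, had the lowest median, -0.37 log2 over 20 genes. The median was -0.63 in set A and 0.14 in set B, and it was -0.15 without Sed 3, -0.24 without Ex 5 and -0.54 without Ex 7. In this list 15 changes were below 0, 7 had an unadjusted p under 0.05 and 0 passed in limma. NR4A3, an orphan nuclear receptor, measured 6.80, 7.40, 8.57 and 6.94 against 9.41, 8.67, 8.29 and 10.81. Ex 7 reached above Sed 6, and the change was -1.87 ± 0.52 (adjusted p = 0.0869). JUN changed by -0.69 ± 0.19 (adjusted p = 0.0832), KLF4 by -0.39 ± 0.12 (0.101) and MCL1 by -0.35 ± 0.12 (0.147). On the mean level of the list Ex 7, at 0.70 log2 above the mean of the 8 barrows, stood apart from Ex 3, Ex 5 and Ex 8, at -0.59, -0.59 and -0.27.

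Cell cycle and replication genes had the highest median, 0.25 log2 over 29 genes, with 0.00 in set A, 0.43 in set B and 0.14 without Sed 7. Here 2 genes rose, 1 fell and 26 did not pass (10.3% called, beside 1.92% of all genes). An unadjusted p under 0.05 was found for 13, beside 1139 of all 6765 genes. The rises were ORC1 and MCM3, a subunit of the replicative helicase, which measured 4.88, 4.41, 4.82 and 4.83 against 3.97, 4.08, 3.96 and 3.94 and rose by 0.75 ± 0.12 (adjusted p = 0.0216). CENPI fell. PCLAF, a partner of the replication clamp, measured 7.01, 5.87, 6.57 and 6.74 against 5.59, 6.23, 4.50 and 4.66, with Ex 5 below Sed 5, a change of 1.31 ± 0.34 (adjusted p = 0.0736). By list level Ex 3, Ex 7 and Ex 8 were at 0.24, 0.23 and 0.24 log2 and Ex 5 at -0.18, while the sedentary animals of set A were at 0.06 and 0.11 and those of set B at -0.35 and -0.36.

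Heat shock and folding genes had a median of -0.11 log2 over 32 genes (-0.06 without Ex 3), with 25 changes below 0, 8 at an unadjusted p under 0.05 and 0 passing in limma. HSP70.2, an inducible chaperone, measured 9.50, 9.80, 9.59 and 9.62 against 11.51, 10.53, 10.10 and 10.01, a change of -0.91 ± 0.24 (adjusted p = 0.0736) that was -1.37 in set A and -0.45 in set B. HSPA5, the chaperone of the endoplasmic reticulum, changed by -0.43 ± 0.13 (adjusted p = 0.114), HSPA2 by -0.95 ± 0.30 (0.120) and HSPB1 by -0.34 ± 0.11 (0.134).

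The 18 sterol genes had a median of 0.13 log2, close in both sets (0.14 and 0.13), and 0.08 without Ex 8 or Sed 3. LRP8 alone of this list passed. INSIG1, which holds back the sterol-sensing machinery, changed by 0.75 ± 0.20 (adjusted p = 0.0777), SC5D, an enzyme of cholesterol synthesis, by 0.46 ± 0.15 (0.126) and ACACA, of fatty acid synthesis, by 0.37 ± 0.11 (0.0997). ACAT2, described above, was not in the list.

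In the AMPK and insulin list TSC1, a brake on mTOR, fell by 0.52 ± 0.10 log2 (adjusted p = 0.0361), with -0.04 and -0.43 at other probe sets that did not pass. PRKAG2, a regulatory subunit of AMPK, measured 7.54, 7.29, 7.08 and 7.07 against 8.93, 7.57, 8.13 and 8.43 (-1.02 ± 0.25, adjusted p = 0.0632), without overlap. In the antioxidant list GCLC, the rate-limiting enzyme of glutathione synthesis, rose by 0.59 ± 0.10 (adjusted p = 0.0265) at its brightest probe set, and TXNRD1 changed by 0.40 ± 0.12 (0.100). The 4 other GCLC probe sets changed by -0.12 to 0.39 and did not pass. Of 28 cytokine and chemokine genes FAS and TNF rose, TNF by 0.45 ± 0.10 (adjusted p = 0.0481) from 5.25 to 5.58 in sedentary to 5.78 to 6.01 in exercised barrows. CXCL14 fell by 0.63 ± 0.11 (adjusted p = 0.0262), while another CXCL14 probe set, at 0.11, did not pass, and PTX3 changed by -1.18 ± 0.53 (0.258), a value that rested on Sed 3 at 7.40 beside 4.91 to 5.27 in the other sedentary barrows. FXYD2 was the call among 12 ion channel genes, where KCNJ3 changed by 0.47 ± 0.12 (adjusted p = 0.0723).

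Vessel and matrix genes gave 1 call. Among 18 genes that respond to shear stress on endothelium the median was 0.03 log2 (-0.27 in set A, 0.21 in set B), with 5 at an unadjusted p under 0.05 and 0 passing in limma. THBD, the thrombin receptor thrombomodulin, measured 7.47, 6.79, 7.60 and 7.63 against 7.84, 8.31, 8.01 and 8.68 (-0.84 ± 0.19, adjusted p = 0.0535). KLF2, a shear-induced factor, measured 4.63, 4.80, 4.71 and 4.72 against 5.05, 4.97, 5.14 and 5.12 (-0.35 ± 0.08, adjusted p = 0.0548), and EDN1, endothelin 1, changed by -0.36 ± 0.14 (0.188). In these genes the exercised values lay below all sedentary ones. NOS3, which makes nitric oxide in endothelium, changed by 0.00 ± 0.14 in size, and VEGFA, the main angiogenic factor, by -0.22 ± 0.17 (adjusted p = 0.504). Of 34 matrix genes MMP14 fell and the median was 0.07; the collagen gene COL3A1 changed by -0.29 ± 0.14 (adjusted p = 0.306) and MMP9 by 0.35 ± 0.11 (0.118).

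Androgen signalling genes, of interest in castrated animals, had a median of -0.02 log2 over 14 genes, with 2 at an unadjusted p under 0.05 and 0 passing in limma. CYP19A1, the aromatase that makes oestrogen from androgen, had the smallest p (-0.45 ± 0.11, adjusted p = 0.0668), and FKBP5, induced by androgens and glucocorticoids, changed by 0.04 ± 0.31 (0.964). Glucocorticoid-responsive genes (median -0.05 over 20), growth factor genes (-0.07 over 18) and circadian clock genes (-0.13 over 8) held no call either. The clock median was -0.05 without Ex 3, -0.25 without Ex 5 and -0.07 without Sed 7. IGF2R, the receptor that clears IGF2, changed by -0.39 ± 0.10 (adjusted p = 0.0610), INHBA by 0.31 ± 0.09 (0.0952), CSNK1D, a clock kinase, by -0.38 ± 0.10 (0.0668) and ANGPTL4 by -0.32 ± 0.11 (0.158). The 20 glucocorticoid, 18 growth factor and 8 clock genes had 4, 3 and 2 at an unadjusted p under 0.05, beside 1139 of all 6765 genes. The other lists held no call: their medians were 0.14 log2 over 24 interferon response genes, 0.04 over 9 mitochondrial biogenesis genes, -0.03 over 9 ketone body and branched-chain genes, -0.01 over 17 angiogenesis genes, 0.02 over 45 ubiquitin, proteasome and autophagy genes and -0.03 over 56 translation genes. At an unadjusted p under 0.05 these lists had 4, 2, 1, 1, 2 and 1 genes. The interferon median was -0.05 without Ex 7, 0.03 without Sed 6, 0.09 without Sed 3, 0.24 without Ex 5 and 0.22 without Sed 5.

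Markers of other cell types were checked in the same animals. Over 19 array measures the smallest p that 4 against 4 can give, 0.0286, is 0.543 after adjustment when 1 measure reaches it, so this test could hardly pass and says nothing on whether the levels of 12 marker lists differed. The smallest unadjusted p among them were 0.0571 for 7 neutrophil markers, 0.0857 for 7 skeletal muscle markers and 0.114 for 7 adipocyte markers (two-sided exact permutation tests). Neutrophil markers ranged from -0.04 to 0.12 log2 in exercised and from -0.13 to 0.01 in sedentary barrows around the mean of the 8. Of the 7 neutrophil markers 2 were called (28.6%, beside 1.92% of all genes), and 1 of the 7 lay above the 40th percentile. S100A8 rose by 0.51 ± 0.09 (adjusted p = 0.0265) and ITGAM by 0.48 ± 0.10 (0.0371), both at low levels of 4.4 and 4.9 log2. S100A9, the partner of S100A8, changed by 0.12 and a second ITGAM probe set by -0.01. TNNC2, the troponin C of fast skeletal muscle, fell by 0.50 ± 0.10 (adjusted p = 0.0339) at a level of 4.8. Of 13 lymphocyte markers PRF1 fell, while CD3G changed by 0.44 ± 0.11 (adjusted p = 0.0633) and the median was 0.18. Ventricular cardiomyocyte markers ranged from -0.05 to 0.19 log2 in exercised and from -0.04 to -0.01 in sedentary barrows. The part of these cell types in the gene changes was not tested.

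The question whether barrows responded differently from gilts was put to a test of the difference itself, over all 16 arrays with the set as a block. In limma 0 of 23935 probe sets passed, with 868 (3.63%) at an unadjusted p under 0.05. In simulated data this test recovered 11% of differences of 0.5 log2 and 63% of those of 1 log2, so differences of these sizes could be missed. The 4 genes with the smallest p in each direction are given as values that did not pass. In DLC1 the change was -0.02 ± 0.09 log2 in barrows and 0.53 in gilts, a difference of -0.55 ± 0.11 (unadjusted p = 1e-04). For MORF4L1 it was -0.97 in barrows and 0.40 in gilts (difference -1.37 ± 0.34), for MUC15 -0.18 and 0.69 (-0.86 ± 0.17) and for GAD2 -0.29 and 0.18 (-0.46 ± 0.13). A second GAD2 probe set was 0.29 higher in exercised barrows (unadjusted p = 0.0097), against the direction of the first. In the other direction it was 0.99 and -0.78 for CR1 (difference 1.77 ± 0.44), 0.48 and -0.77 for APH1A (1.25 ± 0.31), 0.27 and -0.44 for CCDC17 (0.71 ± 0.19) and 0.61 and -0.17 for SH3KBP1 (0.78 ± 0.21).

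Barrows and gilts are different animals and share no controls, so their changes can be set side by side. Of the 685 probe sets called in barrows, 673 (98.2%) had the same sign in gilts, beside 71.7% of all probe sets, and 406 were called in gilts too, all in the same direction. These were 59.3% of the barrow calls and 31.2% of the 1302 gilt calls (5.44% of probe sets). The gilt calls came from the fit to all 16 arrays, with 11 residual degrees of freedom beside 5 for the barrow arrays alone. In that 16-array fit 1553 probe sets (6.49%) were called in barrows. The counts of 685 and 1302, and the shares drawn from them, are therefore not matched between barrows and gilts. All but 1 of the 8 gilts lay in set A, and with the 7 set A gilts alone 671 (98.0%) had the same sign. Across all probe sets the changes in barrows and gilts correlated at 0.60, a description over features that share arrays. Across the 81 control probe sets the same correlation was 0.67, and 54 (66.7%) had the same sign. The controls were not selected for a change in barrows, as the called probe sets were, so these shares are not matched. Of the 19 controls with an unadjusted p under 0.05 in barrows most, though not all, had the same sign in gilts. The 2 that passed in barrows, at 0.49 and 0.43 log2, changed by 0.35 and 0.24 in gilts.

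**Figure D5:**
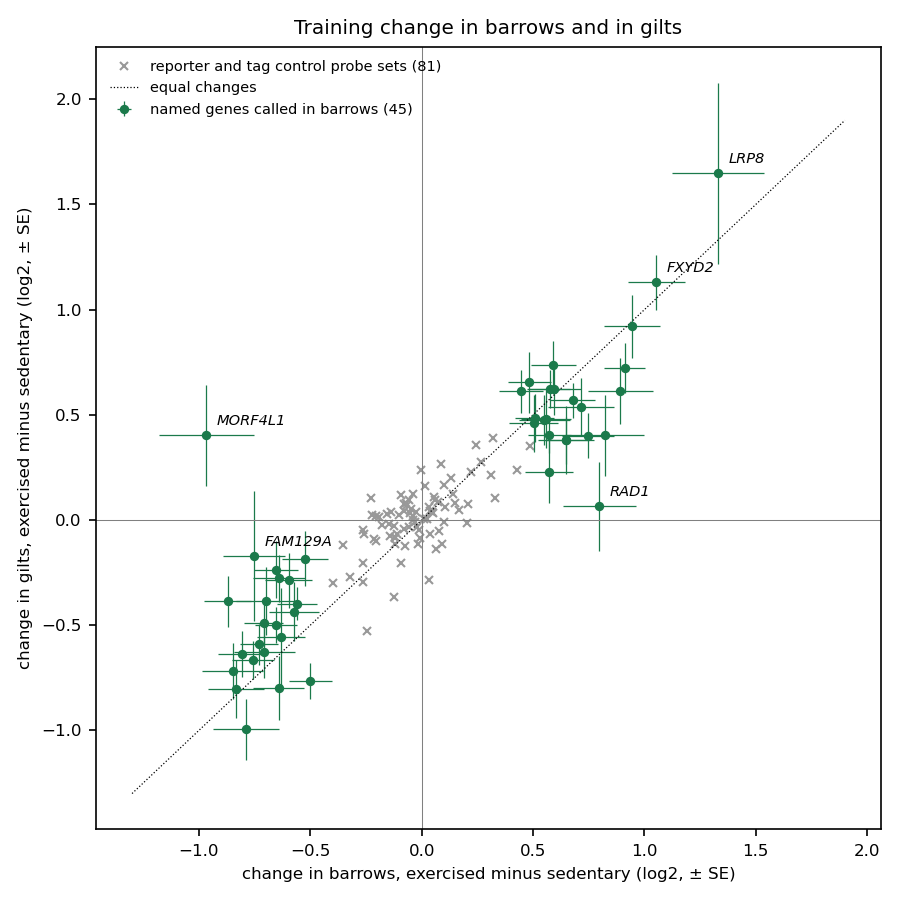
Training change in gilts (vertical, log2) against that in barrows (horizontal, log2) for the 45 named genes called in barrows (green, bars show the SE) and the 81 reporter and tag control probe sets (grey crosses), with a dotted line where both are equal. Of the 45 named genes 44 have the same sign in gilts, MORF4L1 being the exception, and 54 of the 81 controls do. The genes were selected for a change in barrows and the controls were not.

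Of the 28 named genes above the 40th percentile, 27 had the same sign in gilts and 14 were called there. LRP8 changed by 1.65 log2 in gilts (adjusted p = 0.0371), MSTO1 by -0.59 (0.00349), RBM12B by -0.64 (0.00446), DMBT1 by -0.49 (0.0146), MMP14 by -0.63 (0.00916), IP6K1 by -0.50 (0.00444) and SNRNP35 by 0.62 (0.00851). FXYD2 changed by 1.13 (adjusted p = 0.000491), SEMA4D by 0.92 (0.00349), ORC1 by 0.72 (0.00349), ACAT2 by 0.55 (0.00527) and PRF1 by -0.67 (0.00161). Genes called in barrows whose change in gilts did not pass include RAD1 (0.06, adjusted p = 0.901), FAM129A (-0.17, 0.803), TMEM181 (0.23, 0.408) and IL12RB2 (-0.24, 0.343). For these the differences between barrows and gilts were 0.73 ± 0.30, -0.58 ± 0.43, 0.34 ± 0.21 and -0.42 ± 0.19, and none passed.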

How the data were processed

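Biotin-labelled RNA from each animal's left ventricle was put on a one-colour Affymetrix array, per the labels' protocols. The authors deposited 1 log2 value for each probe set and array, and every array's median was 6.24 log2. For their summarisation and normalization no method is named in the labels or files used here. Scanner files were not used here. Control probe sets (188 of 24123) stayed out of the tests. Gene symbols are those of the platform's annotation table and may be outdated: 10069 of the tested probe sets had 1 symbol, 198 several and 13668 none, and 9989 of 10297 annotation entries matched RefSeq by identifier, which changed 0 symbols.

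The 8 barrow arrays were fitted in R 4.3.3 by limma 3.58.1 (lmFit, then eBayes), with training and array set as terms (5 residual and 4.33 prior degrees of freedom). All p-values are two-sided and were adjusted by Benjamini-Hochberg across 23935 probe sets, and every adjusted p is from limma. Array sets were cut at the largest gap in the mean of 42 poly-A control probe sets, 6.31 to 7.22 log2. The difference from gilts is the interaction in a fit of 4 group means to 16 arrays with the set as a block. Its gilt contrast gave the gilt values. A gene stands for its probe set with the highest mean over the 16 arrays. The rule named, among genes that passed, the 14 largest rises and falls above and 4 below the 40th percentile, the 4 smallest p of the difference per direction, up to 4 members per list and 20 set genes, of which NR4A1 was not measured under that symbol and 1 other is not reported here. Members and lists were chosen with earlier results of these data known, so pathway lists are described without tests. Levels of marker lists were compared by exact permutation over samples.

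Same-numbered barrows (3, 5 and 7) correlated at 0.33, 0.24 and 0.26 in their deviations from group means, which the rule used here counts as pairing. Differently numbered exercised and sedentary barrows of the same array set correlated at 0.19 to 0.45, so the values are not particular to equal numbers. Same-numbered barrows also share the array set. After training and set their correlations were -0.19, -0.28 and -0.29, beside -0.25 to -0.08 for differently numbered barrows of a set. The labels do not say that a number is shared. Alternatives were other blocks, samples, normalizations, filters on dim probe sets, a trended and robust eBayes, a fold limit, means over probe sets and leaving out each animal. Chosen after seeing the data were the control probe sets as a comparison, adjustment over brightest probe sets, a training by set term (1 call, 1105 probe sets at an unadjusted p under 0.05), set A gilts alone, the genes passing in all fits that leave out an animal, and naming the genes that passed above the 60th percentile. The fits were tested on simulated data. Plots were made in Python 3.11.15 (matplotlib 3.10.9). The number of arrays limits the precision.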

Additional observations from a re-analysis of the deposited data

Results flagged for a closer look

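Within each group of 4 barrows, a value far from the other 3 was looked for by Dixon's ratio test in 288 sets of values, and chance flags about 1 in 20 such groups. Among genes called for training, Ex 8 stood apart in RABEPK at 5.71 log2 (others 5.85 to 5.87), DMBT1 at 5.64 (5.44 to 5.47) and IP6K1 at 5.03 (5.26 to 5.30). Sed 3 stood apart in LIMS1 at 5.58 (6.03 to 6.08), Ex 5 in MCM3 at 4.41 (4.82 to 4.88) and Ex 3 in CXCL14 at 4.30 (3.88 to 3.92).

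Among genes that did not pass, Sed 6 stood apart in APH1A at 7.63 (others 8.57 to 8.72), HSPA2 at 5.97 (7.03 to 7.23), KCNJ3 at 5.17 (4.74 to 4.78) and GBP1 at 9.30 (9.44 to 9.46). Sed 3 did in PTX3 at 7.40 (4.91 to 5.27), Sed 7 in EDN1 at 6.42 (5.71 to 5.79), Ex 5 in MYH7 at 14.64 (14.46 to 14.49), Ex 7 in TOMM22 at 10.31 (10.16 to 10.18) and Ex 8 in ISG20 at 5.13 (4.89 to 4.92). By mean level of a list, Ex 5 was apart in cell cycle genes at -0.18 log2 (0.23 to 0.24) and translation genes at -0.11 (0.01 to 0.03), and Ex 3 in glycolysis and glycogen genes at -0.035 (0.036 to 0.043).

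Outside the pig probe sets, 2 reporter control probe sets were higher in exercised barrows, by 0.43 and 0.49 log2, past the threshold that was used for genes.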

How the results depend on the processing

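Counts of calls depended on the settings, and the causes were not tested beyond what each setting's construction shows (fewer arrays or fewer probe sets). As reported, 307 probe sets were higher and 378 lower, and 56 and 74 genes. Without the array set block these were 72 and 89 probe sets and 12 and 15 genes, and with all 16 arrays and the block 675 and 878, and 136 and 187. In set A alone, in set B alone, with the replicate block on the titles' numbers (3850 probe sets at an unadjusted p under 0.05) and above the 60th percentile, all were 0. Above the 40th percentile they were 10 and 15 probe sets and 0 and 4 genes. With a change of at least 0.5 log2, 234 probe sets and 45 genes were lower. Means over a gene's probe sets gave 17 and 27 genes, and adjustment over brightest probe sets alone 24 and 31. Leaving out 1 animal gave 16 to 200 probe sets higher and 29 to 211 lower, and 4 to 49 and 6 to 40 genes. Quantile normalization (665 probe sets), median centring (685), trended and robust eBayes (845) and all 16 arrays without the block (902) kept both directions within 1.5 times. The difference between barrows and gilts had 0 calls in limma under all 13 alternatives, with 438 to 1204 probe sets at an unadjusted p under 0.05.

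Calls were made on these same arrays, and all 685 called probe sets had the same sign in set A and in set B. Among the 105 genes looked at, no gene called in barrows changed direction, which that selection largely builds in. Of those not called, in set A alone NPPA was 0.19, NOS3 0.035, DLC1 0.059 and MUC15 0.078 log2, and in set B alone MYH7 was -0.0079, OXCT1 -0.073, PPARGC1A -0.19 and FKBP5 -0.30. With the replicate block FKBP5 was -0.16 and DLC1 0.040. NOS3 was 3.6e-05 after quantile normalization and 4.9e-05 after median centring, and GAD2 was 0.00039 as a mean over probe sets. Leaving out 1 animal at a time, NOS3 ran from -0.11 to 0.13, MYH7 from -0.0088 to 0.050, ATP2A2 from -0.015 to 0.15, PPARGC1A from -0.24 to 0.20, FKBP5 from -0.18 to 0.36 and DLC1 from -0.064 to 0.018. Of the 105 genes 54 were called as reported, and only these could lose a call. Of these 54, 36 lost it without the array set block, all 54 with the replicate block, and 23 to 46 when 1 animal was left out. Dim probe sets, at or below the 40th percentile, hold most calls, and the part of background signal in their values was not tested.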
